A study of Mus musculus with 6 samples.

Results

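The 10 genes described here are feedback and target genes of the ERK pathway that were measured by RNA sequencing of mouse cortex at postnatal day 7 (P7). They are the MAP kinase phosphatases Dusp1, Dusp4, Dusp5 and Dusp6, the Sprouty genes Spry1, Spry2 and Spry4, the Sprouty-related genes Spred1 and Spred2, and the ETS-family transcription factor Etv5. Members were taken as the rows of the gene table whose symbol is on this list. All 10 were among its 24972 rows, and all 10 were among the 15800 genes that were tested, for which 3 or more libraries had to reach 10. Values are normalized counts as deposited. Within a library they were not exact multiples of a common step, so a single size factor per library does not fully describe their scaling.

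Cortex was compared between 3 wildtype libraries, of genotype Zmiz1 f/f, and 3 libraries labelled Zmiz1-KO, of genotype Zmiz1 f/f;Emx1Cre. Both groups carry the floxed Zmiz1 allele, so neither is an unmodified mouse. Emx1-Cre acts in the progenitors of the cortical excitatory neuron and glial lineages, and interneurons, microglia, vessels and meninges in the same dissection are not expected to recombine. Sex, litter and strain are not in the labels, nor whether each library came from 1 animal or from several. P-values therefore measure only the spread between these libraries. The labels also mention isolation of progenitor cells, whereas the extraction text names P7 cortex, and markers of mature neurons, glia and vessels were detected in every library.

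Growth factor receptors activate Ras, which starts a kinase relay through Raf and MEK that ends in phosphorylated ERK. ERK then switches on genes whose products damp the same relay. Nuclear and cytoplasmic dual-specificity phosphatases remove phosphate from ERK and related kinases, Sprouty and Spred proteins restrain the steps between receptor and Raf, and Etv5 carries the transcriptional output of FGF signalling. In neurons several of these genes are also induced by synaptic activity, and the RNA of these feedback genes is widely used as a readout of ERK signalling.

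Zmiz1 went against its label. Its normalized count was 8119, 7929 and 7461 in wildtype, whereas the libraries labelled Zmiz1-KO had 9944, 9779 and 9660. The log2 fold change was 0.32 with SE 0.040 and an adjusted p of 0.00125 by limma, which became 0.380 when the trend of spread with level was left out. Exons are not listed separately in the table, so the removal of an exon cannot be checked, and every direction below is that of the libraries labelled Zmiz1-KO. Xist was at 25307 in wildtype replicate 3 and at 24403 in Zmiz1-KO replicate 2, against 12.9 to 57.3 in the other 4 libraries, and Ddx3y was at 0 and 1.89 in the same pair against 1250 to 1483. Each group thus held 1 library with a female pattern. The summed level of 5 of 12 cell type marker lists did not overlap between the groups. Interneuron markers summed to 14976 to 18783 in wildtype and 19859 to 21382 in Zmiz1-KO, striatal neuron markers to 6921 to 9595 and 9800 to 10969, and meningeal fibroblast markers to 7376 to 8541 and 9618 to 10144. The sum of oligodendrocyte precursor markers was lower, at 12285 to 13095 and 10915 to 11310, with 4 of its 5 genes lower and 1 higher in sign. The sum of microglia markers was also lower, at 2951 to 3177 and 2896 to 2937, but with 3 genes lower and 2 higher in sign. Excitatory neuron markers overlapped, at 52232 to 56572 and 53672 to 54902, and no list had a marker at 0 in all 6 libraries. Choroid plexus markers also overlapped but differed widely between libraries, at 241 to 8254 in wildtype and 286 to 4763 in Zmiz1-KO. The part of these marker differences in the results below was not tested, and in bulk tissue fewer cells of a type and less RNA per cell cannot be told apart.

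None of the 10 feedback genes passed an adjusted p of 0.05 (limma's moderated test on log2(value + 1), Benjamini-Hochberg over 15800 genes), where 0.411% of all tested genes did. Without adjustment, 3 of the 10, namely Dusp1, Dusp4 and Dusp6, had p under 0.05, with the higher mean in the libraries labelled Zmiz1-KO in each case. This limit was passed in that direction by 5.13% of tested genes. The groups did not overlap for 5 of the 10 genes, Dusp1, Dusp4, Dusp6, Spry2 and Spry4. The share over all tested genes was 16.3% for either direction and 8.1% for higher in Zmiz1-KO, which is the direction of all 5. In sign alone, 8 of the 10 were higher and Spred1 and Spred2 were lower. The 10 were chosen with earlier results of these data known, so these counts are a description. The median log2 fold change of the 10 was 0.06, and that of all tested genes was -0.00018.

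**Figure D1:**
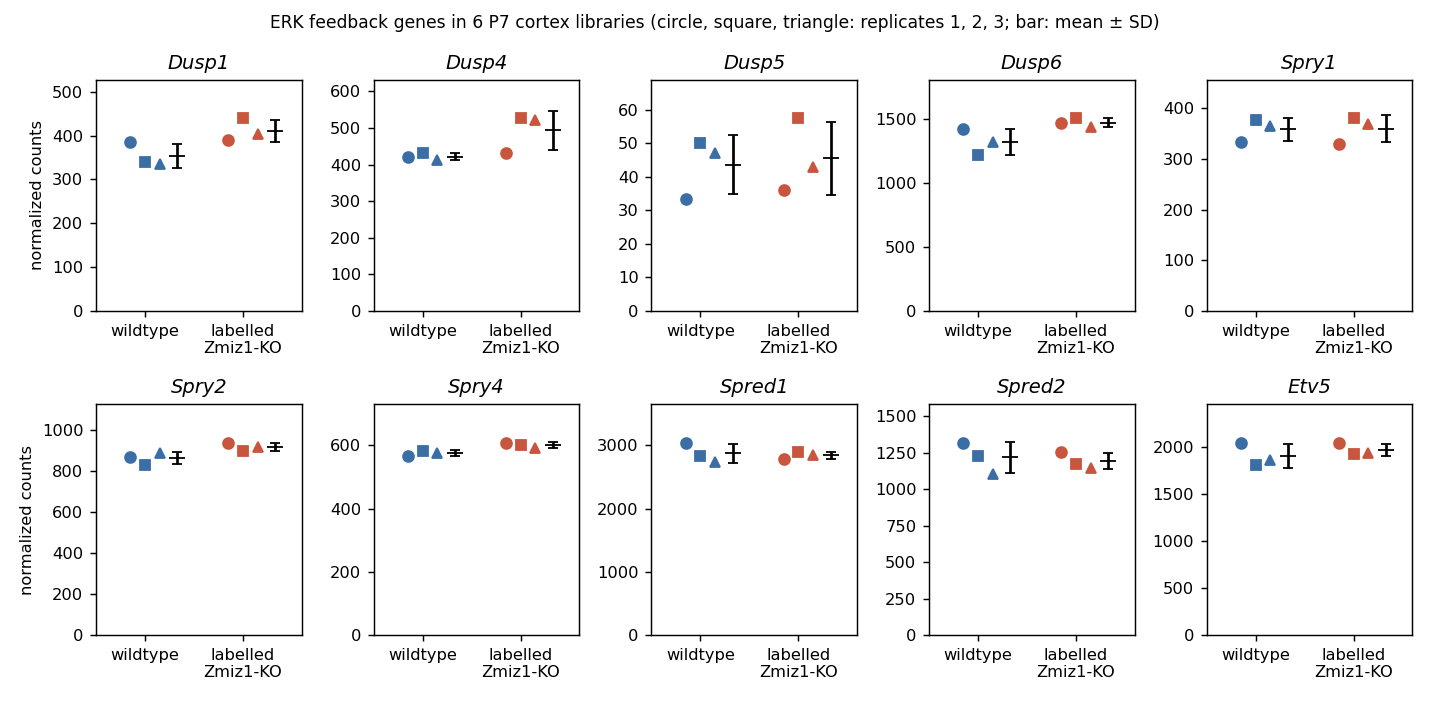
Normalized count of each of the 10 ERK feedback genes in the 3 wildtype and 3 Zmiz1-KO libraries, with 1 point for each library (circle, square and triangle for replicates 1, 2 and 3) and the group mean ± SD as a bar beside the points. Points of the groups do not overlap for Dusp1, Dusp4, Dusp6, Spry2 and Spry4, and they overlap for the other 5 genes.

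Dusp6 encodes the cytoplasmic phosphatase that is most selective for ERK, and its RNA is a standard readout of FGF and ERK activity. Its gene lies at chr10:99263231-99267489 on the plus strand (GRCm38, GENCODE M21), with 2797 bases of exon. The normalized counts were 1422, 1220 and 1320 in wildtype and 1473, 1507 and 1439 in Zmiz1-KO. Every Zmiz1-KO library was above every wildtype library, but the lowest Zmiz1-KO value exceeded the highest wildtype value by only 1.18%. The means were 1321 ± 101 (SD, n = 3) and 1473 ± 34.3 (SD, n = 3). The log2 fold change was 0.16 with SE 0.061 and an adjusted p of 0.331 by limma, which as a fold is a rise of 11.7% with a 95% interval of 2.14 to 22.2%.

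Dusp1 encodes a nuclear phosphatase of p38, JNK and ERK and is itself an immediate early gene. It is annotated at chr17:26505590-26562128 on the minus strand, with 2373 bases of exon. The RefSeq start used for its promoter below, at 26508472, lies inside this span and not at its upstream end. The normalized counts were 385.5, 340.3 and 334.7 in wildtype and 389.3, 439.2 and 402.9 in Zmiz1-KO. The groups did not overlap, with wildtype replicate 1 and Zmiz1-KO replicate 1 only 0.976% apart. Mean normalized counts were 354 ± 27.9 and 410 ± 25.8 (SD, n = 3 each), and the log2 fold change was 0.22 with SE 0.097, a 95% interval of 0.01 to 0.42 and an adjusted p of 0.420 by limma.

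Dusp4 encodes a nuclear phosphatase of ERK and JNK and is annotated at chr8:34807297-34819894 on the plus strand, with 2740 bases of exon. The normalized counts were 420.8, 431.2 and 413.5 in wildtype and 432.9, 526.7 and 521.2 in Zmiz1-KO. Zmiz1-KO replicates 2 and 3 stood well above the wildtype libraries, whereas replicate 1 was 0.375% above the highest of them. The log2 fold change was 0.22 with SE 0.093, a 95% interval of 0.02 to 0.42 and an adjusted p of 0.383 by limma.

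Dusp5 encodes a nuclear phosphatase that acts on ERK alone and was the lowest of the 10 genes. It is annotated at chr19:53529109-53542431 on the plus strand, with 2473 bases of exon. The normalized counts were 33.5, 50.1 and 47.1 in wildtype and 36.0, 57.4 and 43.0 in Zmiz1-KO. The groups overlapped, and replicate 1 was the lowest library of each group. The log2 fold change was 0.05 with SE 0.27, and its 95% interval of -0.52 to 0.63 covered changes in both directions.

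The dual-specificity phosphatase promoters are printed here because Dusp1 and Dusp6 were among the 3 members with the smallest p while Dusp5 was not, and because 2 of them hold motifs of growth factor and activity response. Each window is the 250 bases before the RefSeq transcription start (RefSeq, GRCm38.p6), written in the gene's direction. They are chr17:26508473-26508722 (minus strand) for Dusp1, chr19:53528895-53529144 (plus strand) for Dusp5 and chr10:99262981-99263230 (plus strand) for Dusp6. Capitals mark a full cAMP response element (CRE) in Dusp1 and adjoining matches to the CArG box of the serum response element (SRE) in Dusp5.
Dusp1: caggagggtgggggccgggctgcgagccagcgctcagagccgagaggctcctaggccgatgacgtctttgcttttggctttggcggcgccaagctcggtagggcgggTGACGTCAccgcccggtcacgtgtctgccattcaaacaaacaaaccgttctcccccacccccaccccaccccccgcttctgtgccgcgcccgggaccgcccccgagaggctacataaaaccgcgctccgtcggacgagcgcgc
Dusp5: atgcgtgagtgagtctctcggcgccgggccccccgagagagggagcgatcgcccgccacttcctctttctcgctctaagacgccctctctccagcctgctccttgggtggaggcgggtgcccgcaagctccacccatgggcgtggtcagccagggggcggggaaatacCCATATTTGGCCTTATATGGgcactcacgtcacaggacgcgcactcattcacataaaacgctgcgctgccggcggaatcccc
Dusp6: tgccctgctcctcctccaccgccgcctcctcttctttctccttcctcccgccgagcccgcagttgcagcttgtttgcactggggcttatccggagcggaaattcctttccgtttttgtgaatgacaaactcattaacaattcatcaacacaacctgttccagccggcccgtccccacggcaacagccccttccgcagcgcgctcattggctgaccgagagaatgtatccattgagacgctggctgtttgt

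Windows of this length were used for 8 of the 10 genes (9 windows, since Etv5 has a pair of starts). They were searched on both strands beside 32817 such windows of all genes. Dusp4 and Spry4 had no window in the search. The member search left out chromosome 18, where Spry4 lies, whereas the windows of all genes kept it. The CRE, TGACGTCA, was present in the Dusp1 window and in 1.55% of all windows. The CRE half-site TGACG, which every full CRE also holds, was present in the windows of Dusp1, Dusp5 and Spred2 and in 17.7% of all windows. The SRE CArG box was present in the Dusp5 window, in 2 copies, and in 1.47% of all windows. The AP-1 site TGANTCA (6.75% of all windows), the ETS site CCGGAA (12%), the EGR site GCGNGGGCG (4.7%) and the TATA box TATAAA (12.4%) matched none of the 9 windows. A match describes the letters in the window only.

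Sprouty proteins are membrane-associated inhibitors that act between receptor tyrosine kinases and Raf. Spry2, at chr14:105891947-105896819 on the minus strand with 2087 bases of exon, had normalized counts of 867.5, 827.6 and 887.3 in wildtype and 936.4, 895.4 and 915.5 in Zmiz1-KO. The groups did not overlap, by a margin of 0.913%. Spry2 had a log2 fold change of 0.09 (6.41% as a fold), with SE 0.064, a 95% interval of -0.05 to 0.22 and an adjusted p of 0.656 by limma.

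Spry4 had normalized counts of 566.5, 582.9 and 576.8 in wildtype and 607.9, 600.8 and 590.5 in Zmiz1-KO. All Zmiz1-KO libraries were above all wildtype libraries. Its log2 fold change was 0.06 (4.22% as a fold), with SE 0.073, a 95% interval of -0.10 to 0.21 and an adjusted p of 0.836 by limma. The SDs of 8.28 and 8.76 normalized counts were smaller than counting alone would give at its estimated 294 reads per library. The moderated SE of limma borrows the spread of genes of like level and was wider than these SDs imply.

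Spry1, at chr3:37639947-37644598 on the plus strand with 2906 bases of exon, had normalized counts of 332.9, 377.1 and 366.0 in wildtype and 330.0, 380.7 and 369.1 in Zmiz1-KO. The groups overlapped almost fully, and replicate 1 was the lowest library in each. The means were 359 ± 23.0 and 359.9 ± 26.6 (SD, n = 3 each), with a 95% interval of the log2 fold change from -0.20 to 0.21.

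Spred proteins bind neurofibromin and bring it to Ras at the membrane. Spred1, at chr2:117121374-117182279 on the plus strand, had the highest normalized count of the 10, at 3042, 2830 and 2744 in wildtype and 2784, 2887 and 2848 in Zmiz1-KO. The Zmiz1-KO values lay inside the wildtype range. The log2 fold change was -0.02 with SE 0.048 and a 95% interval of -0.12 to 0.09. Spred2, at chr11:19924375-20024026 on the plus strand, had normalized counts of 1319, 1231 and 1107 in wildtype and 1257, 1175 and 1146 in Zmiz1-KO, again inside the wildtype range. Its log2 fold change was -0.03 with SE 0.068 and a 95% interval of -0.17 to 0.12.

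Etv5, a transcription factor induced by FGF through ERK, is annotated at chr16:22381309-22439719 on the minus strand. Its normalized counts were 2051, 1815 and 1865 in wildtype and 2049, 1933 and 1944 in Zmiz1-KO. Wildtype replicate 1 was the highest of the 6 libraries, and the other 2 wildtype libraries were below all of Zmiz1-KO. Etv5 had a log2 fold change of 0.05 with SE 0.055, a 95% interval of -0.07 to 0.17 and an adjusted p of 0.810 by limma. Without wildtype replicate 1 the groups did not overlap for 6 of the 10 genes, Etv5 included, but with 1 library fewer all tested genes also separated more often in this direction, at 13% against 8.1%.

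**Figure D2:**
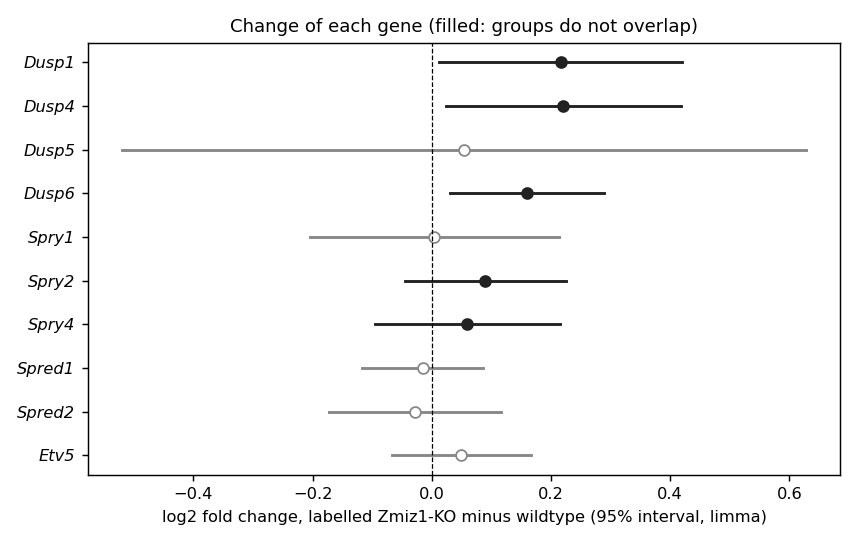
Log2 fold change of Zmiz1-KO against wildtype for the 10 genes, with points at the estimate and bars for the 95% interval of limma's moderated test. The intervals of Dusp1, Dusp4 and Dusp6 lie above 0 before adjustment for the number of genes tested, and that of Dusp5 is the widest.

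For each of the 5 genes without overlap, the exact two-sided permutation p was 0.1, the smallest that 3 against 3 libraries can give. How many of the 10 had an unadjusted p under 0.05 depended on single libraries. It was 3 without Zmiz1-KO replicate 1 (7.88% of all tested genes in either direction) and 2 without wildtype replicate 1 (9.36%). It was 1 without wildtype replicate 2 (10.9%), wildtype replicate 3 (10.9%) or Zmiz1-KO replicate 3 (7.38%), which is near the share of all tested genes. It was 0 without Zmiz1-KO replicate 2, where 13.6% of all tested genes passed this limit in either direction, against 11% with all 6 libraries. It was also 0, against 14.5% of all tested genes, among the 4 libraries with a male pattern, a set chosen after the values were seen. The log2 fold changes among those 4 were 0.13 for Dusp1, 0.16 for Dusp4 and 0.14 for Dusp6, with adjusted p of 0.687, 0.594 and 0.417 by limma. A p that misses the threshold does not show that the levels were alike: the interval of Dusp6 reaches a rise of 22.2%, and that of Dusp1 a rise of 33.8%.

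Depth set different limits for different genes. In units of 1000000, the normalized values of a library summed to 32.7 to 33.2, and the spacing of low values put the reads behind them at an estimated 15.5 to 17.9. That spacing is a median of which the values were not exact multiples, so read numbers and CVs from counting are approximate. Mean estimated reads per library ran from 22.4 for Dusp5 through 192 for Dusp1, 230 for Dusp4, 445 for Spry2 and 701 for Dusp6 to 1430 for Spred1. For Dusp5, counting alone gives a coefficient of variation (CV) of 21.8% in wildtype, and the CV seen between libraries was 20.3%. For Dusp6 the wildtype CV of 7.65% exceeded the 3.95% from counting, and for Spred2 8.75% exceeded 4.11%. Spry4, at 1.44% against 5.98% in wildtype and 1.46% against 5.69% in Zmiz1-KO, and Dusp4 in wildtype, at 2.12% against 6.99%, fell farthest below counting error as a ratio. Several others were also below it, among them Dusp6 in Zmiz1-KO, at 2.33% against 3.63%. Spry2 was below it in both groups, at 3.53% against 4.89% in wildtype and 2.24% against 4.60% in Zmiz1-KO.

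**Figure D3:**
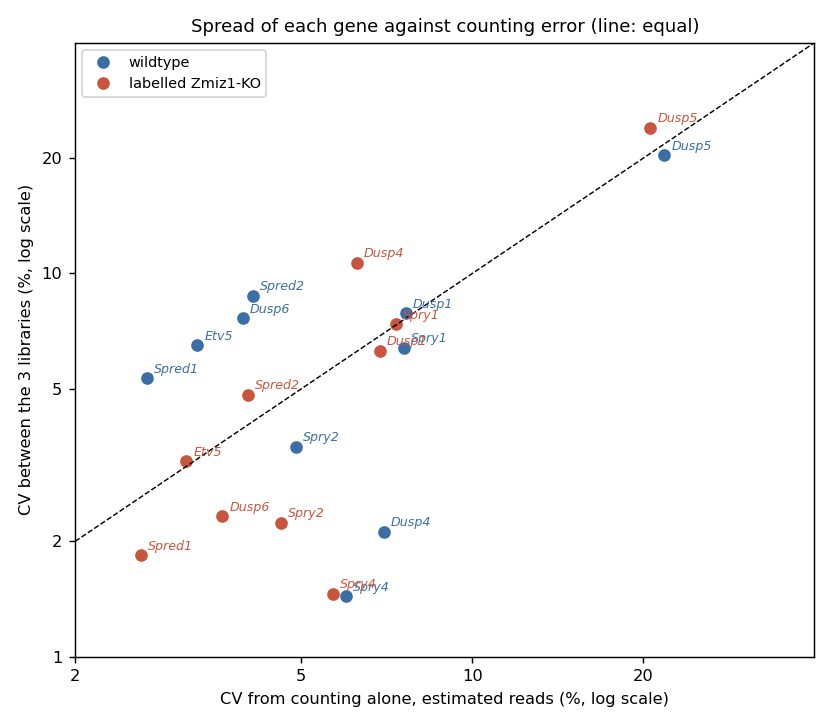
CV between the 3 libraries of a group (y axis, percent, log scale) against the CV from counting alone at the estimated reads (x axis, percent, log scale), with 1 point per gene and group. Points above the dashed line varied more than counting gives, as Spred2 in wildtype (8.75% against 4.11%) did, and both Spry4 points lie farthest below it.

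Levels between genes were compared only per kilobase of annotated exon, in the wildtype libraries. Etv5, at 474 ± 30.8 normalized counts per kilobase (SD, n = 3), and Dusp6, at 472 ± 36.1, were followed by Spred1 at 423 ± 22.6 and Spry2 at 412 ± 14.6. The wildtype ranges of each of these overlapped with the next in order. Spred2, at 274 ± 24.0, stood apart from Spry2 above it and from Dusp4 below it. Dusp4 at 154 ± 3.26 and Dusp1 at 149 ± 11.7 overlapped, as did Spry1 at 123 ± 7.91 and Spry4 at 121 ± 1.74, whereas Dusp1 and Spry1 did not. Dusp5, at 17.6 ± 3.58, was the lowest by a wide margin. Exon length is the union over annotated transcripts, so a gene whose cortex transcript is shorter than that union is understated on this scale.

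**Figure D4:**
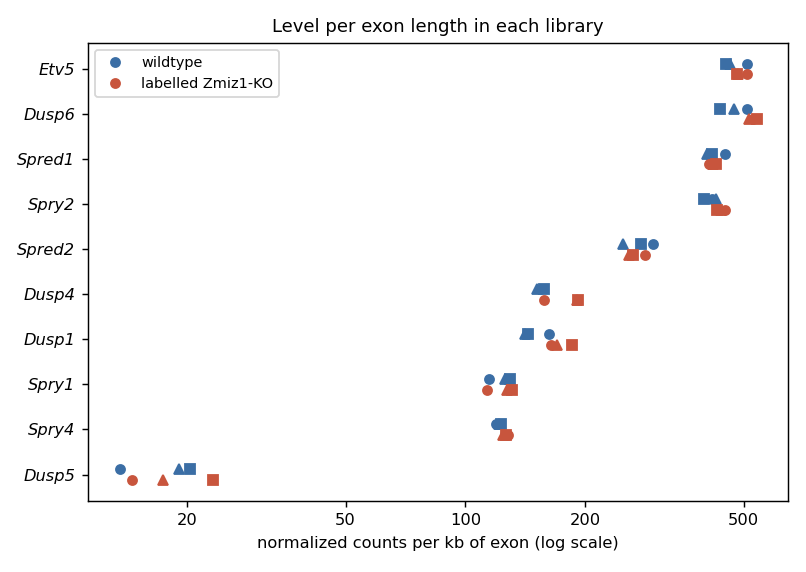
Normalized count per kilobase of exon (x axis, log scale) of the 10 genes in each library (circle, square and triangle for replicates 1, 2 and 3), ordered by the wildtype mean. Etv5 and Dusp6 lead at 474 and 472 in wildtype, and Dusp5 is lowest at 17.6.

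The reads of 3 members may be shared with other annotated genes. Of the 75-base stretches of exon, 19.7% in Dusp5 also occurred in an antisense gene (AC137853.2), 20.1% in Spry1 also in Gm42922 on the opposite strand and 18.7% in Etv5 also in Gm4798. The library kit does not mark strand, so such genes cannot be told apart in Dusp5 and Spry1. The other 7 members shared no such stretch.

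The remaining genes of the pathway were summarised by lists. Among other MAP kinase phosphatases and feedback genes, 0 of 10 tested passed the limma threshold, with 1 higher and 2 lower at an unadjusted p under 0.05 (5.13% and 5.84% of all tested genes) and a median log2 fold change of 0.03. Etv4, an ETS factor and close relative of Etv5, had a log2 fold change of 0.25 (adjusted p 0.240), Etv1, of the same family, -0.23 (adjusted p 0.335) and Dusp9, a cytoplasmic ERK phosphatase, -0.33 (adjusted p 0.747).

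Of 22 genes of the Ras-ERK cascade itself, 0 passed with limma, 0 higher and 4 lower had an unadjusted p under 0.05 (5.84% of all tested genes were lower at this limit), 14 were lower in sign, and the median log2 fold change was -0.02. The largest differences were those of Rasa1 and Nf1, which switch Ras off, at -0.15 and -0.11, and of Sos1, which switches it on, at -0.13. Of 25 tested growth factors and receptor tyrosine kinases, 0 passed with limma, again 0 higher and 4 lower had an unadjusted p under 0.05, and the median was -0.02. Erbb3, a neuregulin receptor, had the largest log2 fold change at -0.92 (adjusted p 0.178). The EGF receptor ligands Egf and Tgfa were at 0.35 and 0.28, with adjusted p of 0.666 and 0.468.

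Other immediate early genes, only some of which share ERK as an upstream kinase with the feedback genes, held 5 of the 6 calls made over all these lists. ERK activity itself was not measured. Of 20 tested, 5 rose and 0 fell, where 26 of all 15800 tested genes rose. The list was chosen with earlier results of these data known, so these counts are a description. In sign 19 were higher, and the median log2 fold change was 0.23. Egr1, a zinc-finger factor, rose by 0.53 (adjusted p 3.3e-05), with 1621, 1762 and 1691 normalized counts in wildtype and 2465, 2416 and 2453 in Zmiz1-KO. The AP-1 subunits Fos and Fosb rose by 0.95 and 1.01 (adjusted p 0.00125 and 0.0478), Klf4 by 0.67 (adjusted p 0.0305) and Arc, a regulator of AMPA receptor trafficking, by 0.40 (adjusted p 0.0444), all by limma. Among these 5, Egr1 and Fos stayed past the threshold with any 1 library left out, without robust estimation and in the male-pattern libraries, whereas the calls of Fosb, Klf4 and Arc were lost without robust estimation, in the male-pattern libraries and without single libraries. With limma-voom the adjusted p was 0.079 for Fosb and 0.056 for Arc, and for Fosb it was 0.051 without the filter on low values and 0.056 with Xist as a covariate. Without Zmiz1-KO replicate 3 the adjusted p was 0.340 for Fosb, 0.142 for Klf4 and 0.130 for Arc. All 5 fell short when the trend of spread with level was left out. Dusp1, the member that is itself an immediate early gene, had a log2 fold change of 0.22, close to the median of this list, but the difference between the lists was not tested.

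Of 7 ERK output genes known from other tissues, 0 rose and 1 fell past the threshold, where 26 of all 15800 tested genes rose and 39 fell. In sign 6 were higher and 1 was lower, and the median log2 fold change was 0.12. At an unadjusted p under 0.05 by limma, 1 was higher and 1 lower (5.13% and 5.84% of all tested genes). Epha4, a guidance receptor, fell by 0.20 on the log2 scale (adjusted p 0.0444), from 7193 ± 268 to 6279 ± 87.3 normalized counts (SD, n = 3 each). This call was also lost without wildtype replicate 1 (adjusted p 0.136 by limma), wildtype replicate 3 (0.162), Zmiz1-KO replicate 1 (0.193) or Zmiz1-KO replicate 3 (0.294). It was lost as well with Xist as a covariate (0.056), without robust estimation (0.103), without the trend (0.447) and in the male-pattern libraries (0.085). Ier3 was at 0.35 (adjusted p 0.523), and Etv4 is also on this list.

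**Figure D5:**
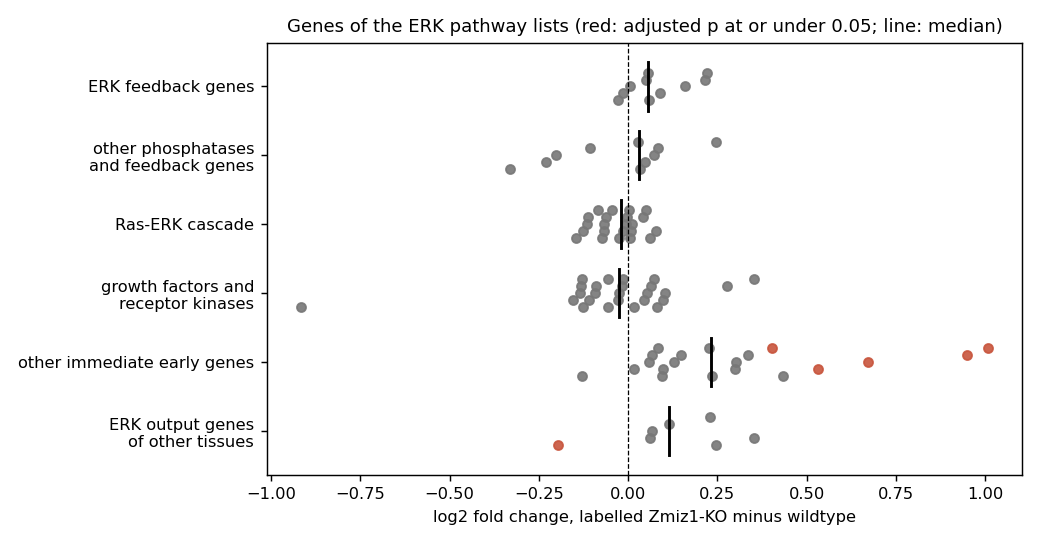
Log2 fold change of every tested gene of the 10 members and of 5 further ERK pathway lists, with 1 point per gene, red where the adjusted p was at or under 0.05, and a line at the list's median. The medians are 0.06 for the members and 0.23 for other immediate early genes, and between -0.02 and 0.12 for the other 4 lists.

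Across the 6 libraries the members varied together only in part. The mean standardised level of the 10 was -0.04, -0.50 and -0.60 in the wildtype libraries and 0.18, 0.69 and 0.27 in the Zmiz1-KO libraries, highest in Zmiz1-KO replicate 2. Over the 45 pairs of members the median Pearson r was 0.16, which is given as a description since all values come from the same 6 libraries. The highest was 0.94, for Dusp5 and Spry1, whose replicates 1 were low in both groups, followed by 0.89 for Dusp1 and Dusp6. The lowest was -0.84, for Spry1 and Etv5. These r include the difference between the groups. Within groups, r was 0.94 for Dusp5 and Spry1, 0.72 for Dusp1 and Dusp6 and -0.92 for Spry1 and Etv5. Other pairs moved either way, such as Dusp4 and Spry2 from 0.35 to -0.62 and Dusp1 and Spred1 from 0.42 to 0.91. The tested genes outside the list whose pattern over the 6 libraries was most like the members' mean were Skil (r = 0.997), Fcgrt (0.988), Thap6 (0.988), Gabra5 (0.988) and Rasgrp1 (0.985), picked as the top of all tested genes.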

How the data were processed

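RNA was sequenced from 3 wildtype and 3 Zmiz1-KO P7 cortex samples with a TruSeq kit that does not mark strand. The authors aligned reads with STAR to mm10 and normalized gene counts with DESeq2 in BaseSpace, and deposited the normalized counts, which are treated as a signal. Versions and the gene annotation used are not given in the sources used here. Whole reads could not be recovered: at a tolerance of 0.1 read, 92.0 to 94.0% of low values but only 19.4 to 21.2% of high values were near whole. No count test was therefore run, and read numbers are estimates.

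Genes that reached 10 normalized counts in 3 or more libraries were tested on log2(value + 1) with limma 3.58.1 (R 4.3.3; trend and robust), two-sided, with Benjamini-Hochberg adjustment over all tested genes and a threshold of 0.05. Fold changes on this scale understate those of low genes. Intervals are 95%. The scripts were tested on simulated data. Figures were drawn with matplotlib 3.10.9 in Python 3.11.15. Coordinates come from GENCODE M21 (GRCm38) and promoters from RefSeq (GRCm38.p6).

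Members and lists were chosen with earlier results of these data known. Named genes were the members, Zmiz1, Xist, Ddx3y, every list gene past the threshold (filled to 3 per list by the largest absolute fold change) and the 5 genes most like the members' mean pattern. Alternatives changed the scaling, filter, pseudocount, threshold, spread model, covariates and samples.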

Additional observations from a re-analysis of the deposited data

How the results depend on the processing

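Under none of the alternatives run did a member pass the threshold, and Dusp1, Dusp4, Dusp6, Spry2, Spry4 and Etv5 kept their sign in all 20. The filters, the threshold, the robust and trend settings and the replicate block cannot change a fold change, so a sign could reverse only under the other settings. Over all 20 the log2 fold change ran from 0.13 to 0.28 for Dusp1, from 0.16 to 0.31 for Dusp4 and from 0.10 to 0.21 for Dusp6. With 1 library left out, the log2 fold change ran from -0.12 to 0.21 for Dusp5, -0.048 to 0.065 for Spry1, -0.047 to 0.027 for Spred1 and -0.10 to 0.030 for Spred2, and among the male-pattern libraries, chosen after seeing the data, it was -0.058 for Dusp5 and -0.022 for Spry1. The cause of these reversals was not tested. Of all tested genes 65 passed the threshold. This became 106 at an adjusted p of 0.1, 17 without robust estimation, 0 without the intensity trend (1396 at an unadjusted p under 0.05; limma-voom called 0 members) and 153 in the male-pattern libraries, and ran from 12 to 152 with 1 library left out (30 without wildtype replicate 1, and 17, 152 and 12 without Zmiz1-KO replicates 1, 2 and 3). Of the 83 pathway list genes 6 passed, against 2 without robust estimation, 0 without the trend, 2 in the male-pattern libraries and 2 to 5 with 1 library left out. With the replicate number as a replicate block 168 genes passed. Deviations of same-numbered libraries from their group means correlated at -0.005, -0.113 and -0.006. Such deviations are tied to each other within a group and litter is not in the labels, so whether the numbers pair the samples cannot be told. A count test on whole reads was not run because whole reads were not recovered. Depth limits Dusp5 most, at 16.6 to 31.4 estimated reads per library.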
